A study of Homo sapiens with 4 samples.

Results

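Long intergenic noncoding RNAs (lincRNAs) that carry a numbered LINC symbol and were measurable in Panc1 cells are described here. Panc1 is an established human line of pancreatic ductal carcinoma. The members were chosen by their counts: a symbol made of LINC and a number, and at least 10 counts in each of the 4 libraries. Of 54628 rows in the tables, 2158 had such a symbol, 1491 of these had no count in any library, 209 reached 10 counts in at least 1 library, and 138 met the rule. The rule used the counts of both groups as a minimum level and not the difference between them. A LINC gene that dropped below 10 counts in 1 group was therefore left out.

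The series holds polyA RNA-seq of Panc1 cells under 2 treatments, 2 libraries carrying the label HMGB2 siRNA and 2 the label scramble siRNA. A small interfering RNA (siRNA) lowers the level of the transcript it matches, and a scramble siRNA is meant to match none. HMGB2 encodes a high mobility group box protein that binds and bends DNA in chromatin. The labels give no time after transfection, dose or siRNA sequence, and do not say whether each library is a culture of its own, so the p-values rest on a spread that may be technical.

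The targeted gene goes against the labels. Under the HMGB2 siRNA label HMGB2 counts were 4021 and 2746, and under the scramble label 346 and 319. As CPM, counts scaled to library size, these are 128 and 134 against 15.7 and 15.3. Its log2 fold change, labelled HMGB2 siRNA minus labelled scramble, was 3.07 ± 0.08 (SE; adjusted p = 1.54e-33 by edgeR's quasi-likelihood test). The names of the count columns also give the other treatment in all 4 tables. The groups are called here by their labels with the HMGB2 level beside them: HMGB2-high for the pair labelled HMGB2 siRNA, HMGB2-low for the pair labelled scramble. Every "higher" or "lower" below is in the HMGB2-high pair relative to the HMGB2-low pair. Which pair received which siRNA cannot be told apart from these tables alone.

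Library totals ranged from 20340695 to 31852391 counts. Replicate libraries differed by more than sampling noise, with a chi-square per degree of freedom of 2.93 in the HMGB2-high pair and 5.23 in the HMGB2-low pair. The epithelial keratins KRT8, KRT18 and KRT19 were abundant, and the fibroblast, leukocyte and endothelial markers checked had 3 counts or fewer in every library, except PDGFRB with 26 and 22 against 7 and 4 counts, and CD68 with 2056 to 3283 counts. The part of PDGFRB-expressing or CD68-expressing cells in the results was not tested.

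LincRNAs are transcripts from their own promoters between protein-coding genes, often spliced and polyadenylated, with no long open reading frame. Most are scarce, many stay in the nucleus and are degraded there by the RNA exosome, and only a few have an agreed function. Some start close to a coding gene's promoter and run away from it on the other strand. A LINC number is a name given by position and carries no statement of function, so the members form a class by annotation and not a pathway.

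The promoters of the called members with the largest changes in each direction among those with a matched promoter, and of LINC00205, the member with the smallest adjusted p, are shown for the sequence at their starts. Each runs from 250 bases before to 50 bases after the RefSeq start (GRCh38.p14), 5′ to 3′ on the gene's strand, and the transcript starts right after base 250. Capitals mark matches on either strand to 6 words, which are the CCAAT box, the GC box GGGCGG, the TATA word TATAAA, the word TTTGAA, part of the TCF consensus, the AP-1 word TGANTCA and the cyclic AMP response word TGACGTCA. The first 3 belong to members higher in the HMGB2-high pair and the last 4 to lower ones.
LINC02475, chr4:44016611-44016910 on the plus strand: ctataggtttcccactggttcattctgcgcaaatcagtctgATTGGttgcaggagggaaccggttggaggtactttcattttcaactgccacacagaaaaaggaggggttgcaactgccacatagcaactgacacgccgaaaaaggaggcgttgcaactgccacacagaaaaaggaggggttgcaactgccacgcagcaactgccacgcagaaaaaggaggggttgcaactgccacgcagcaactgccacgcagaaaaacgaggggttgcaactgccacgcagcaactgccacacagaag
LINC00641, chr14:21206851-21207150 on the minus strand: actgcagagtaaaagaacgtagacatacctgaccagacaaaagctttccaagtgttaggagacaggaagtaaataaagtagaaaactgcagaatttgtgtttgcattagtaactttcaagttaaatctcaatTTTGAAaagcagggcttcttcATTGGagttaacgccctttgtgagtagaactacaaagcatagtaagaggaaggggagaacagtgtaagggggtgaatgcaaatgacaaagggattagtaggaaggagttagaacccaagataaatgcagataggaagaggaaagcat
LINC00997, chr7:32758036-32758335 on the plus strand: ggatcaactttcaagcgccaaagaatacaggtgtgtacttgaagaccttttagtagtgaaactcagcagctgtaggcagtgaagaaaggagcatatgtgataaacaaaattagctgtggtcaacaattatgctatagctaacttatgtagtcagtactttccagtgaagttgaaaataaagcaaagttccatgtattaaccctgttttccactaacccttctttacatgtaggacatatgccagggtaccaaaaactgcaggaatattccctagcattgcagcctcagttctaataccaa
LINC01134, chr1:3900154-3900453 on the plus strand: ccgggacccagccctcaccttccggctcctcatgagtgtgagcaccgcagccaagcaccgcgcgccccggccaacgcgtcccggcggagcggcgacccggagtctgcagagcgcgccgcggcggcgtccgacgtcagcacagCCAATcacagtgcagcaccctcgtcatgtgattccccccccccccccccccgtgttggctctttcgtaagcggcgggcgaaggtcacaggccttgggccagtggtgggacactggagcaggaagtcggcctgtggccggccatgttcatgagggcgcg
LINC02361, chr12:132189646-132189945 on the minus strand: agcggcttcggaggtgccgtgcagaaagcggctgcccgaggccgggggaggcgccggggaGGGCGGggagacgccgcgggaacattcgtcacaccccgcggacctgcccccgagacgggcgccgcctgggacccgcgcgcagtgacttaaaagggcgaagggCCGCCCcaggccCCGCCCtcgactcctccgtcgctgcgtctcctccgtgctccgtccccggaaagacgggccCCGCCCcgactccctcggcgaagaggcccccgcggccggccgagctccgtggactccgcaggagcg
LINC01176, chr7:30390635-30390934 on the plus strand: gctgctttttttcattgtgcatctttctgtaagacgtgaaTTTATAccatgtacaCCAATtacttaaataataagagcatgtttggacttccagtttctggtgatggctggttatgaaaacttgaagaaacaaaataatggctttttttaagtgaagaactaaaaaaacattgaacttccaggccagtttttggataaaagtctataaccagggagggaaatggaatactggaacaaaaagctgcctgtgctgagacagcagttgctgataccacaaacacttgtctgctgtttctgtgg
LINC00205, chr21:45287802-45288101 on the plus strand: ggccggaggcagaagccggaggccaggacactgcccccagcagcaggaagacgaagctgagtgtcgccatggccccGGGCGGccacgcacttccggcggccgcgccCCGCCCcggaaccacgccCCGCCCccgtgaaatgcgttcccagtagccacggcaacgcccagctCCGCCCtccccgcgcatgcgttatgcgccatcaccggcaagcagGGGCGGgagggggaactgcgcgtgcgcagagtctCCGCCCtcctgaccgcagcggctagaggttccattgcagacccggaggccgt

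A RefSeq promoter was matched by symbol for 101 members, and in 95 of these its start lay within 100 bases of the start in the tables. Their median GC content was 63.3%, beside 58.7% for all 34943 RefSeq promoters of the same length. CCAAT was present in 43 of 101 (42.6%; 34.6% of all promoters) and GGGCGG in 56 (55.4%; 44.9%). TATAAA was present in 12 (11.9%; 11.6%), TTTGAA in 8 (7.92%; 15.2%), TGANTCA in 6 (5.94%; 7.72%) and TGACGTCA in 4 (3.96%; 1.84%). Among the called members with a promoter, the median GC content was 53.8% in the 6 higher ones and 68.0% in the 13 lower ones. Of those 6 and those 13, CCAAT was present in 3 and 6, GGGCGG in 2 and 8, TATAAA in 0 and 1, TTTGAA in 1 and 1, TGANTCA in 2 and 0, and TGACGTCA in 0 and 0. A match is a description of letters and not of binding.

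Per kilobase of exon the members were scarce. Their median level was 1.22 RPKM (CPM per kilobase of the exonic length in the tables) over the 4 libraries, beside 4.72 RPKM for 15122 tested genes with an exon on a main chromosome. The range was 0.0794 to 22.3 RPKM, and 79 members exceeded 1 RPKM. All members together took 0.0713% and 0.0714% of the counts in the HMGB2-high libraries and 0.0775% and 0.0789% in the HMGB2-low libraries, so the sums did not overlap. Without LINC00205 the shares were 0.0675% and 0.0673% against 0.0720% and 0.0721%. With 2 libraries a group, an exact permutation test cannot go below p = 0.333, and none is given.

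LINC00673, a lincRNA studied in pancreatic cancer, was the most abundant member at 22.3 RPKM. It had 60.1 and 56.9 CPM in the HMGB2-high libraries and 61.3 and 55.8 CPM in the HMGB2-low libraries, with a log2 fold change of -0.00 ± 0.08 (SE). The next levels were 13.7 RPKM for LINC01089, 12.6 for LINC00665, 12.1 for LINC02432 and 11.6 for LINC02482. LINC00888, LINC00857, LINC00839, LINC00339 and LINC02575 followed, from 9.51 down to 7.89 RPKM. LINC01089 had 21.1 and 24.9 against 20.03 and 18.1 CPM, with a log2 fold change of 0.26 (adjusted p = 0.0544 by edgeR). It passed without the first HMGB2-low library, where only the second stood for that group. The fits of LINC01089 without each other library are not given here. Of the 10 most abundant members, LINC02432 and LINC00339 passed the test, in opposite directions. LINC02482 had groups that did not overlap (5.34 and 4.48 against 5.41 and 6.62 CPM) and an adjusted p of 0.265, whereas the libraries of LINC00673, LINC00665, LINC00888 and LINC00857 were interleaved.

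**Figure D1:**
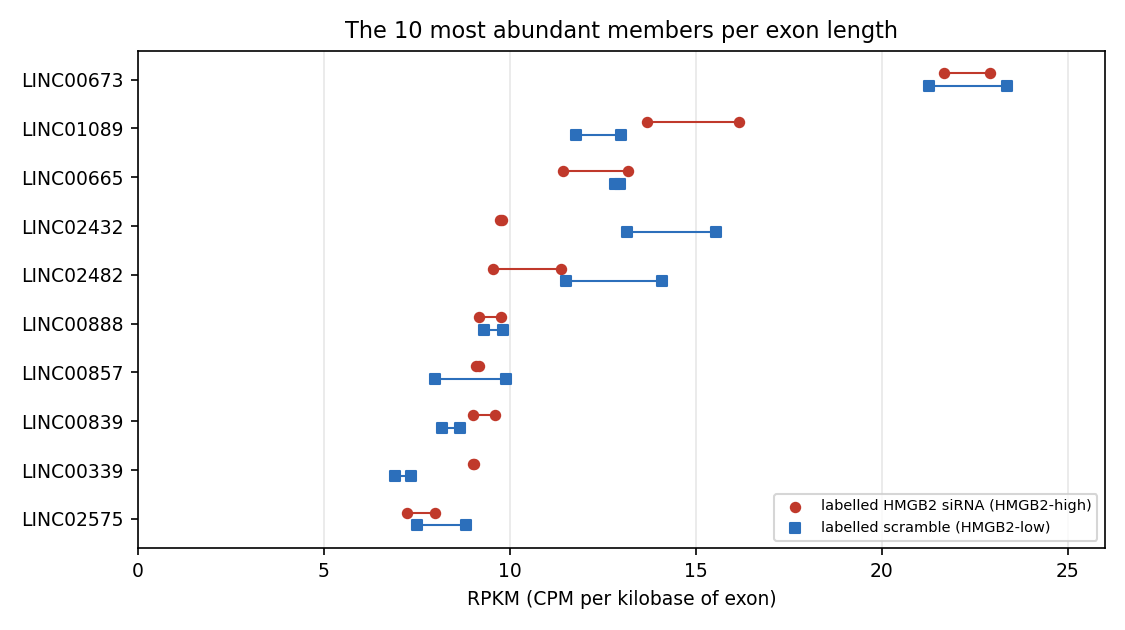
Level per exon length (RPKM, linear axis) of the 10 most abundant lincRNA members in each of the 4 libraries. Each point is 1 library and each line joins the 2 libraries of a group. LINC00673 lies near 22 RPKM in both groups, and LINC02432 and LINC00339 are the members whose difference passed the test.

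All 138 members were among the 15161 genes tested, and 24 passed an adjusted p of 0.05: 7 were higher and 17 lower in the HMGB2-high pair. That is 17.4% of the members, beside 30.8% of all genes tested, and 5.07% higher and 12.3% lower, beside 16.7% and 14.1% of all genes. Of all called genes 54.3% were higher, a share that fell to 42.0% under upper-quartile scaling and to 43.3% when only total counts set the scale. At an unadjusted p under 0.05 by edgeR there were 40 members. The share of all genes at that threshold is not given here, so 40 is not read as many or few. The groups did not overlap in 73 members (52.9%; 25 higher, 48 lower), beside 63.7% of all genes tested, and they did not overlap in any of the 24 called members. The median log2 fold change was -0.11 for the members and -0.01 for all genes tested, and the median absolute log2 fold change was 0.33 and 0.21. Between replicate libraries the median absolute log2 difference was 0.24 for the members and 0.10 for 14162 genes with at least 10 counts in each library.

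Read against genes of like count, the share of called members was near the background. With a mean of 10 to 50 counts, 5 of 69 members were called (7.25%), beside 143 of 2159 genes (6.62%) that also had at least 10 counts in each library. With 50 to 200 counts, 12 of 48 members were called (25%), beside 538 of 2246 genes (24.0%). With 200 to 1000 counts, 6 of 19 members (31.6%) stood beside 1616 of 4374 genes (36.9%). Of the 2 members above 1000 counts LINC00205 was called, beside 2227 of 5383 genes (41.4%). The split by direction also moved with the count over all genes: 38 higher and 105 lower in the lowest class, 183 and 355 in the next, 860 and 756 in the next, and 1400 and 827 in the highest. Members followed with 0 and 5, 3 and 9, and 4 and 2, and the highest class with 0 and 1. In the lowest class the 0 higher members by edgeR compare with 1 at an unadjusted p under 0.05, 0 by DESeq2 and 0 by limma-voom. The 5 lower members by edgeR compare with 6 by limma-voom and 0 by DESeq2, which gave no adjusted p for 36 of the 69 and had 4 lower ones at an unadjusted p under 0.05. The lower count of called members, and their lean to lower values, therefore stand beside a like pattern in all genes at these counts.

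**Figure D2:**
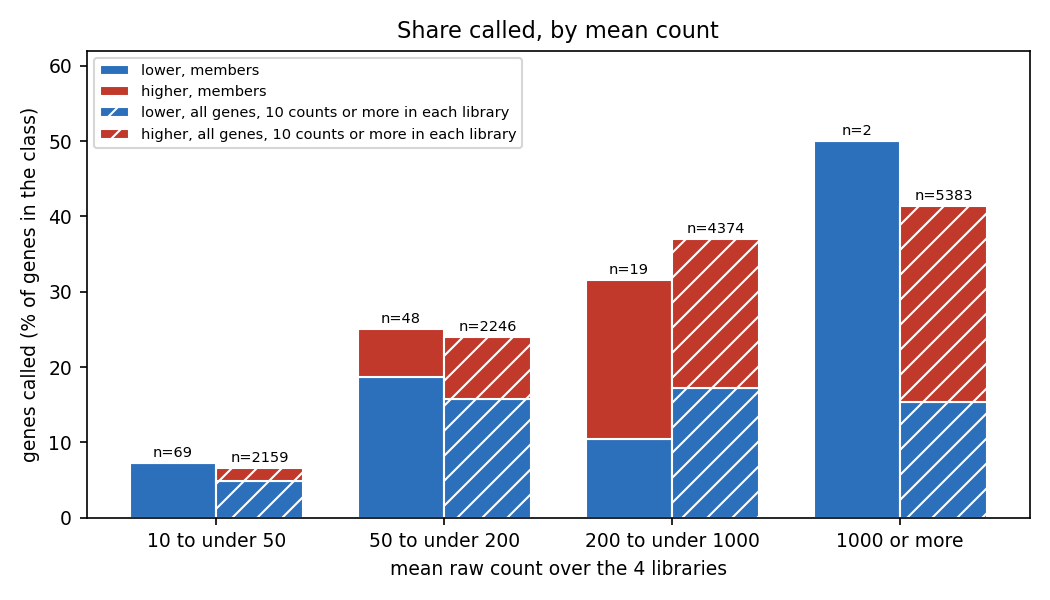
Percent of members and of all genes with at least 10 counts in each library that passed the edgeR test, by class of mean raw count (bars from 0). In the 10 to 50 class the shares are 7.25% and 6.62%, and in the 50 to 200 class 25% and 24.0%.

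**Figure D3:**
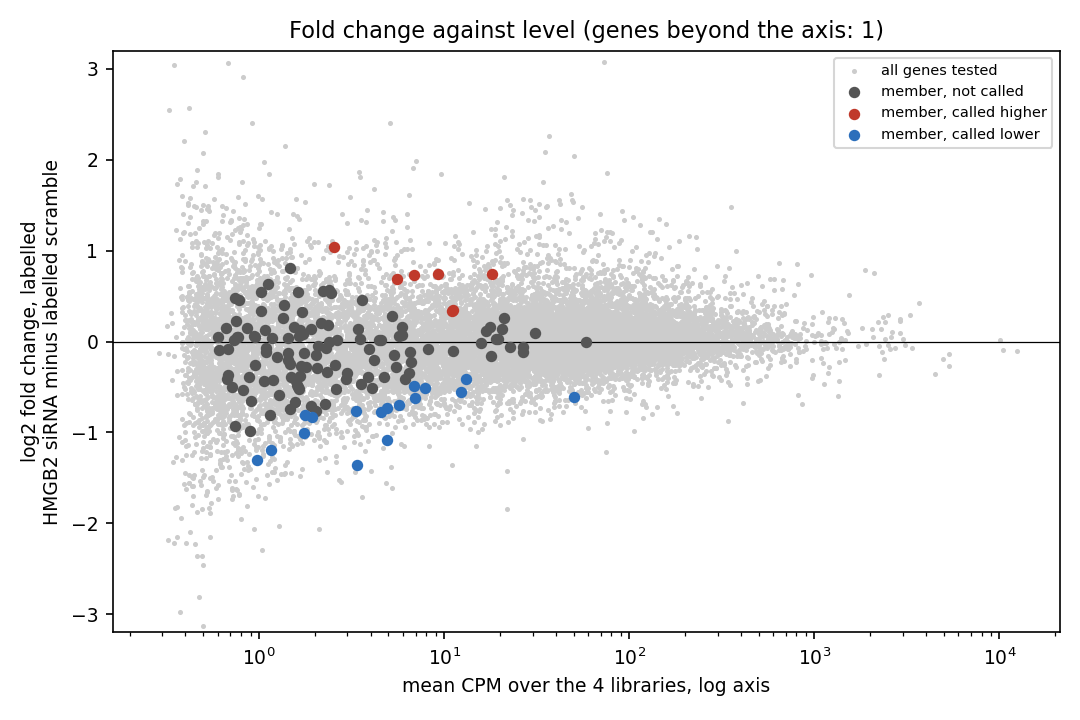
Log2 fold change, labelled HMGB2 siRNA minus labelled scramble, against mean CPM (log axis) for all 15161 genes tested (grey) and the 138 members (dark grey where not called, red where called higher, blue where called lower). Most members lie at the low end of the level axis, where the spread of all genes is wide; 1 gene lies beyond the vertical axis.

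Of the 7 members that were higher where HMGB2 was high, LINC02475 had the largest change. It had 3.59 and 3.22 CPM (113 and 66 counts) in the HMGB2-high libraries and 1.45 and 1.87 CPM (32 and 39 counts) in the HMGB2-low libraries, with a log2 fold change of 1.04 ± 0.26 (SE; adjusted p = 0.00169 by edgeR). Both HMGB2-high libraries lay above both others. Without the first HMGB2-high library the value was 0.95 with an adjusted p of 0.0577. LINC00641 had 10.4 and 12.8 against 7.13 and 6.53 CPM, a log2 fold change of 0.75 ± 0.15. LINC00997, a single-exon transcript, had 23.9 and 21.7 against 15.4 and 11.8 CPM, a log2 fold change of 0.75 ± 0.11 and the smallest adjusted p of this direction, 7.38e-07. The lowest HMGB2-high library of LINC00641 and of LINC00997 was above the highest HMGB2-low one. LINC01963 had 8.14 and 9.11 against 5.09 and 5.28 CPM, a log2 fold change of 0.73 ± 0.16. LINC00941, a lincRNA studied in several carcinomas, had 5.95 and 7.80 against 4.50 and 3.94 CPM, a log2 fold change of 0.68 ± 0.18. Without the second HMGB2-high library, its higher one, LINC00941 had a log2 fold change of 0.50 and an adjusted p of 0.137.

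The 2 smallest changes in this direction were those of LINC00339 and LINC00963. LINC00339 had 12.5 CPM in each HMGB2-high library and 9.58 and 10.2 CPM in the HMGB2-low libraries, a log2 fold change of 0.34 ± 0.13 (adjusted p = 0.0354 by edgeR). LINC00963, first described in prostate cancer cells, had 12.5 and 11.9 against 10.4 and 8.93 CPM, a log2 fold change of 0.34 ± 0.13 (adjusted p = 0.0407). Both HMGB2-high libraries lay above both HMGB2-low ones in each gene. LINC00339 lost its call without the first HMGB2-high library (adjusted p = 0.203), without the second (0.158) and without the first HMGB2-low library (0.0795). LINC00963 lost it without the first HMGB2-high library (0.284), the second (0.117) and the second HMGB2-low library (0.197). Their adjusted p-values were above 0.05 also by DESeq2 (0.147 and 0.167), when only total counts set the scale (0.0784 and 0.0879) and under upper-quartile scaling (0.0756 and 0.0849).

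LINC00205 was the called member with the most counts and the smallest adjusted p, and it was lower where HMGB2 was high. It had 1204 and 855 counts, or 38.3 and 41.7 CPM, in the HMGB2-high libraries and 1209 and 1388 counts, or 54.9 and 66.6 CPM, in the HMGB2-low libraries. Its log2 fold change was -0.61 ± 0.08 (SE; adjusted p = 6.52e-08 by edgeR). LINC01134 had the largest change of all members, at 1.40 and 2.49 against 4.63 and 4.99 CPM (44 and 51 against 102 and 104 counts), a log2 fold change of -1.36 ± 0.25 (adjusted p = 1.55e-05). LINC00886 had 3.28 and 2.97 against 7.13 and 6.19 CPM, a log2 fold change of -1.08 ± 0.19 (adjusted p = 1.43e-05). Both HMGB2-low libraries lay above both HMGB2-high ones in each of these 3.

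A second set of lower members, with 67 to 332 counts a library, kept the call in every setting tried other than a test against a 1.5-fold change. LINC02432, among the most abundant per length, had 9.99 and 10.04 against 13.5 and 15.9 CPM, a log2 fold change of -0.55 ± 0.13. LINC00938, a single-exon transcript, had 5.60 and 5.36 against 7.95 and 9.02 CPM, a log2 fold change of -0.63 ± 0.16. LINC00472, described as a tumour suppressor in breast cancer, had 4.2 and 4.53 against 6.86 and 7.30 CPM, a log2 fold change of -0.70 ± 0.18. LINC01569 had 3.44 and 3.27 against 5.18 and 6.34 CPM, a log2 fold change of -0.77 ± 0.20. In all 4 the replicates of a group lay closer to each other than to the other group.

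The remaining 10 lower members lost their call in at least 1 setting, as given below for fits without 1 library. By DESeq2 with all libraries, LINC02896, LINC00174, LINC00467, LINC02609, LINC00863, LINC01004 and LINC00662 also lost it. LINC02361 and LINC01176 had few counts, 18 and 11 against 21 and 38 for LINC02361 and 19 and 17 against 31 and 38 for LINC01176. Their log2 fold changes were -1.30 ± 0.43 and -1.20 ± 0.39 (SE). Without the second HMGB2-low library, which held the highest count of both, they were -0.77 and -1.0 with adjusted p-values of 0.362 and 0.130 by edgeR. Without the first HMGB2-high library the adjusted p-values were 0.130 and 0.237, and without the second LINC02361 had 0.116. LINC02896 had 1.02 and 1.32 against 2.09 and 2.54 CPM and a log2 fold change of -1.01, with adjusted p-values of 0.204 without the first HMGB2-high library and 0.0853 without the second HMGB2-low one. LINC00174 had 1.24 and 1.56 against 2.50 and 2.40 CPM and a log2 fold change of -0.83, and its adjusted p rose above 0.05 without any one library (0.0563 to 0.310). LINC00467 had 1.05 and 1.56 against 1.95 and 2.50 CPM and a log2 fold change of -0.80. Its adjusted p was 0.0465 with all libraries, and 0.481, 0.0585 and 0.249 without the first HMGB2-high, the second HMGB2-high and the second HMGB2-low library.

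The groups of LINC02609, LINC01003, LINC00863, LINC01004 and LINC00662 were likewise separate with all 4 libraries. LINC02609 had 2.07 and 2.92 against 4.18 and 4.13 CPM (log2 fold change -0.77), with an adjusted p of 0.281 by edgeR without the first HMGB2-high library. LINC01003 had 4.01 and 3.27 against 6.77 and 5.47 CPM (log2 fold change -0.73). LINC00863 had 6.84 and 6.19 against 9.54 and 9.07 CPM (log2 fold change -0.51). LINC01004 had 6.20 and 5.17 against 7.04 and 9.07 CPM (log2 fold change -0.49), and LINC00662 had 12.1 and 10.4 against 14.4 and 15.8 CPM (log2 fold change -0.41). Without the second HMGB2-high library the adjusted p-values of these last 4 were 0.0586, 0.111, 0.230 and 0.199, and without the second HMGB2-low library that of LINC01004 was 0.249.

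**Figure D4:**
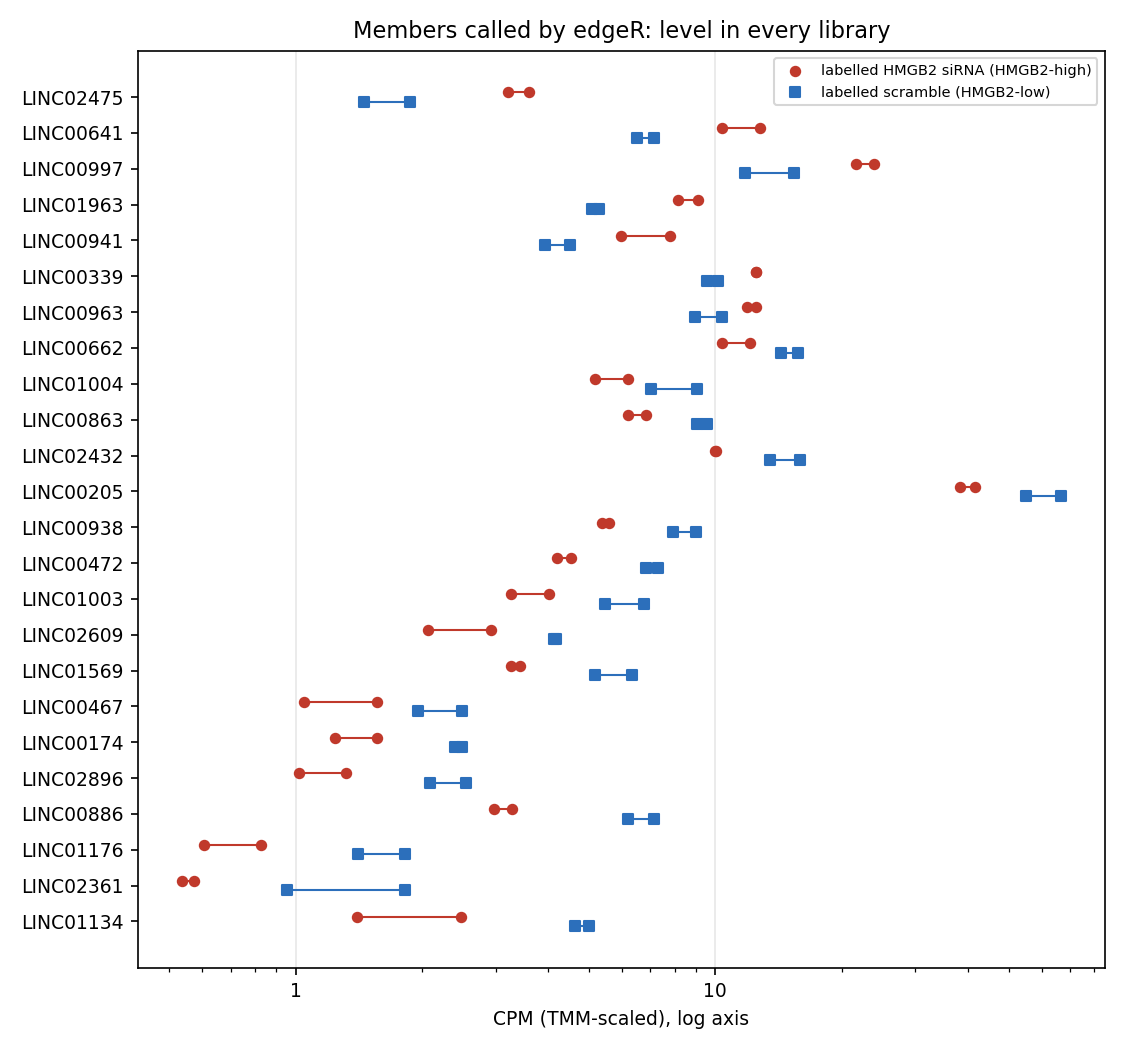
CPM (TMM-scaled, log axis) of the 24 called members in each of the 4 libraries, ordered by log2 fold change from LINC02475 at the top (1.04) to LINC01134 at the bottom (-1.36). Each point is 1 library and each line joins the 2 libraries of a group, and no line overlaps its partner.

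The other 114 members did not pass the test, with log2 fold changes from -0.99 to 0.81, 65 negative and 49 positive. The smallest adjusted p among them was 0.0518 by edgeR, for LINC01833 (log2 fold change -0.42). The ends of that range were LINC02256, with 14 and 16 against 24 and 26 counts, and LINC02206, with 66 and 33 against 29 and 17 counts. Their median of mean counts was 42.1, beside 132 for the called members.

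The 3 members just inside the count rule were LINC00479, LINC00663 and LINC02762, with a smallest count of 10. LINC00663 had 32 and 26 against 10 and 28 counts. Of the 5 LINC rows just outside, with a smallest count of 9, LINC00565 had 22 and 16 against 15 and 9 counts, LINC01023 15 and 15 against 9 and 12, and LINC01275 15 and 21 against 13 and 9. Of 71 LINC rows with 10 counts in some but not all libraries, 32 were tested and 3 (9.38%) were called, beside 30.8% of all genes tested. Among genes with a mean of 10 to 50 counts and at least 10 in each library, 6.62% were called. The left-out rows fail that last condition, so this share is of an unlike set of genes. LINC00842 was higher (48 and 30 against 13 and 8 counts, log2 fold change 1.6), LINC02875 was lower (11 and 8 against 27 and 24, -1.68) and LINC01260 was lower (11 and 7 against 19 and 20, -1.38). These rows were chosen for a low count in some library. LINC00842, LINC02875 and LINC01260 passed the filter only with the libraries of the group where they were high. Their fold changes are therefore not compared with those of the members. LINC00842, LINC02875 and LINC01260 were named after their values were seen.

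The members lay on 23 chromosomes, with 26 on chromosome 1. RefSeq listed 130 by symbol, all 130 as lncRNA. They had a median of 4 exons and a median exonic length of 2194 bases. Of 15 single-exon members 5 were called (33.3%; 2 higher, 3 lower), and of 123 with several exons 19 were called (15.4%), beside 30.8% of all genes tested. The difference between these shares was not tested. The single-exon called ones were LINC00997, LINC01963, LINC01004, LINC00938 and LINC01003. LINC01004 lies within the span of KMT2E on the opposite strand. In 30 members exonic bases are shared with another gene, in 25 of them with a gene on the opposite strand. The strand setting of the counting is not given in the sources used here, so reads of such a member and its partner cannot be told apart. Of these 30, LINC00339 (197 bases shared with CDC42-AS1), LINC00662 (165 with LOC101927151), LINC00863 (148 with NUTM2A-AS1) and LINC00467 (100 with LOC107985259) were called. NUTM2A-AS1 was also lower, at 20.1 and 19.7 against 31.9 and 35.5 CPM (log2 fold change -0.76 ± 0.10, SE). Without these 30 members, 6 of 108 were higher and 14 lower.

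The nearest protein-coding gene was tested for 111 members, and in 63 of them (56.8%) it had a fold change of the same sign. Across these 111 pairs, which share their libraries, Pearson's r was 0.17, given as a description. Of the 24 called members 20 had a tested neighbour, 12 with the same sign. Of these 20 neighbours 8 were themselves called, beside 30.8% of all genes tested, and the difference was not tested. In 4 pairs the directions were the same. LINC01963 and XRCC5, which encodes the Ku80 subunit of DNA end joining, were both higher, with 547 and 543 against 501 and 472 CPM for XRCC5 (log2 fold change 0.16, adjusted p = 0.0463 by edgeR). LINC00205 and POFUT2, a protein O-fucosyltransferase, were both lower, with 78.7 and 81.6 against 92.6 and 93.3 CPM for POFUT2 (log2 fold change -0.21). LINC01134 and C1orf174 were both lower, with 47.6 and 43.5 against 54.1 and 60.4 CPM for C1orf174 (log2 fold change -0.33). LINC00467 and TRAF5, a signalling adaptor of tumour necrosis factor receptors, were both lower, with 10.7 and 10.2 against 13.1 and 13.3 CPM for TRAF5 (log2 fold change -0.34).

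In the other 4 pairs the directions were opposite. CAPRIN2, an RNA-binding protein gene beside LINC00941, was lower at 35.1 and 44.0 against 46.9 and 52.8 CPM (log2 fold change -0.35). TFAP4, a transcription factor gene beside LINC01569, was higher at 13.3 and 13.1 against 9.77 and 8.35 CPM (log2 fold change 0.54). ZNF644 beside LINC02609 had 109 and 103 against 87.1 and 93.6 CPM (0.23), and TPST1, a tyrosylprotein sulfotransferase gene beside LINC00174, had 29.1 and 26.7 against 22.2 and 23.3 CPM (0.30). In each of these pairs the neighbour's change was smaller than the lincRNA's on the log2 scale. The lincRNAs were picked for being called at lower levels, where only larger changes pass, so this order of sizes is no result.

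A gene on the other strand started within 1000 bases of 37 members, and for 10 it was protein-coding. In 7 of these 10 the signs were the same, beside 56.8% of the 111 pairs of a member and its nearest protein-coding gene. Both partners were called in LINC00205 with POFUT2 and in LINC01134 with C1orf174, both lower, and these were the only called members among the 10. The gaps between the gene bodies were 138 and 111 bases, so the promoter windows of LINC00205 and LINC01134 printed above reach into the coding partner.

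**Figure D5:**
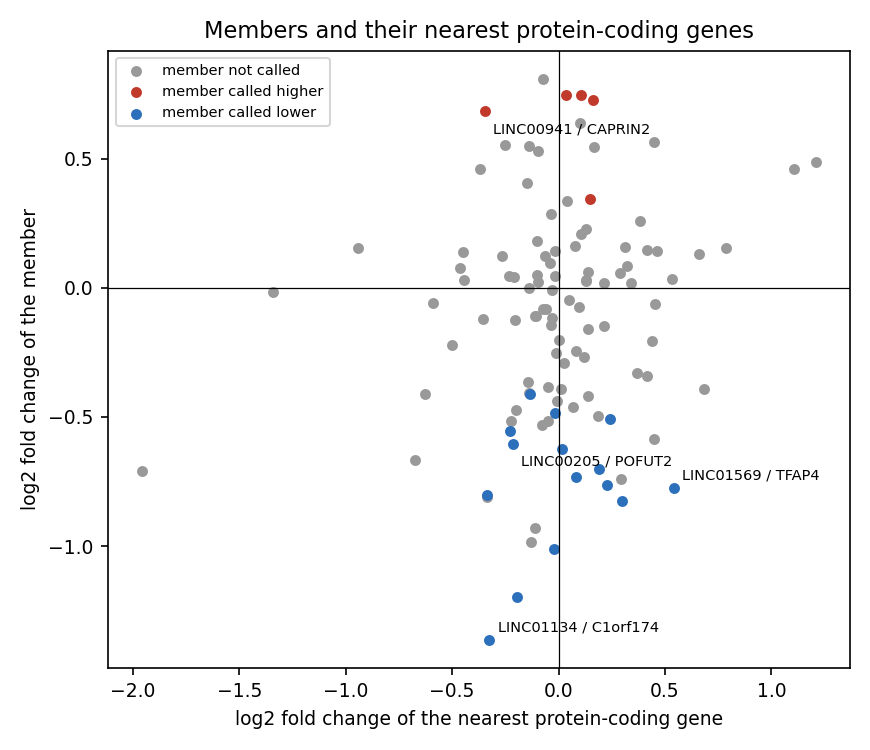
Log2 fold change of each member (vertical) against that of its nearest protein-coding gene (horizontal) for the 111 members with a tested neighbour, both labelled HMGB2 siRNA minus labelled scramble. Points fall in all 4 quadrants, 63 of them in the 2 where the signs are the same.

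The heptamer GACAAAG, the heptamer ATAGTAA and the heptamer AATAGTA had come from an earlier search of coding genes' fold changes in these libraries, so counts of them support nothing and are given as a description. They were first counted in each member's longest GENCODE transcript: 5 of 32 members with a word were higher and 4 lower, beside 2 and 10 of 81 without. Several of those transcripts did not match the counted exons, and the transcript with the best exon match was then used, a choice made after the first counts were seen. With the best match of all 113 members, 4 of 25 with a word were higher and 2 lower, beside 3 and 12 of 88 without. With only the 90 whose match was at least 50%, a limit also set then, 4 of 22 were higher and 1 lower, beside 3 and 10 of 68 without. In this last set ATAGTAA was present in 6 members, of which LINC00997, LINC01963 and LINC00941 were called. GACAAAG was present in 15, of which LINC00641 and LINC02361 were called, and AATAGTA in 5, of which LINC00941 was called. Transcripts with a word had a median length of 2666 bases, beside 1776 without. Of all genes tested, with or without a word, 16.7% were higher and 14.1% lower.

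Long noncoding RNAs with names of their own were taken from a fixed list of 65 genes in the tables. Of 48 tested, 7 were higher and 11 lower, or 14.6% and 22.9%, beside 16.7% and 14.1% of all genes tested. Their median log2 fold change was -0.11, beside -0.01 for all genes tested. NORAD, which binds Pumilio proteins in the cytoplasm, was higher at 190 and 197 against 83.0 and 94.1 CPM (log2 fold change 1.13 ± 0.07, SE). OIP5-AS1, DLEU2 and SNHG7 were also higher (0.46, 0.83 and 0.40). NEAT1, the scaffold of nuclear paraspeckles, was lower at 223 and 257 against 377 and 503 CPM (log2 fold change -0.88 ± 0.08). MEG3, an imprinted RNA, had 27.6 and 31.6 against 42.5 and 55.1 CPM (-0.72), and TUG1 and CCDC18-AS1 were lower as well (-0.31 and -0.77). The other 30 did not pass the test. Without the first HMGB2-high library fewer of the list were called, and fewer of all genes tested as well.

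The RNA exosome degrades many noncoding transcripts. A list of 30 genes in the tables held its subunits and nuclear adaptors, with the cytoplasmic factors DIS3L, SKIV2L and TTC37, the 5′ to 3′ exonuclease XRN2 and cap-binding genes. All 30 were tested, and 9 were called, 6 higher and 3 lower. That share, 30%, is near the 30.8% of all genes tested, so it is no result about the list. The median log2 fold change was 0.09, beside -0.01 for all genes. The core subunits EXOSC8 (39.3 and 37.4 against 30.8 and 24.96 CPM) and EXOSC9 (28.4 and 28.3 against 23.4 and 19.4 CPM) were higher, by 0.46 and 0.40 on the log2 scale. ZCCHC8, a subunit of the nuclear exosome targeting complex, and the poly(A) polymerase TENT4A were higher too (0.33 and 0.28). ZFC3H1, which links polyadenylated nuclear RNA to the exosome, had 63.7 and 67.0 against 71.7 and 92.0 CPM and was lower (-0.33), as were the cap-binding NCBP2 (-0.24) and the catalytic subunit DIS3 (-0.25). With either HMGB2-high library left out, fewer of these 30 genes were called, and fewer of all genes tested as well.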

How the data were processed

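PolyA RNA-seq of Panc1 cells was measured in 4 libraries, grouped by the treatment in their labels. The authors deposited 1 table of raw counts per library, made with STAR, SAMtools 1.9 and featureCounts of Subread 1.6.3 on GRCh38, per the submitters' processing notes. The strand setting and annotation release are not given in the sources used here. The counts of 15161 genes kept by filterByExpr (minimum count 10, minimum total 15) were scaled by TMM and tested with edgeR 4.0.16 (glmQLFit and glmQLFTest, group as the only term), with Benjamini-Hochberg adjustment over all of them and a threshold of 0.05. CPM are TMM-scaled, RPKM are CPM per kilobase of the tables' exonic length, and an SE is the log2 fold change divided by the square root of F. The script was tested on simulated data. For 7 members that length includes exons on alternate sequences, LINC02361 among them.

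The members, lists and tests were chosen with earlier results of these data known. Count classes and the 6 promoter words were chosen after the fits were seen. Named were HMGB2, every called member, the 10 highest per length, the 3 members nearest the count limit on each side, neighbours of called members, and up to 4 called genes a direction from each list. The nearest gene was narrowed to protein-coding genes after the rule had been written. Same-numbered libraries were not paired: the correlation of their deviations from the group means was -0.0144. Alternatives were other scalings and filters, DESeq2 1.42.0, limma-voom 3.58.1, a test against 1.5-fold, a replicate block and leaving out each library. Thinning to the smallest library total was added after seeing the data.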

Additional observations from a re-analysis of the deposited data

How the results depend on the processing

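Against 7 higher and 17 lower members, a test against a 1.5-fold change (glmTreat) called 0 higher, with 3 at an unadjusted p under 0.05, and 1 lower. Over all genes it called 213 higher and 45 lower instead of 2536 and 2135, with 2 other named lncRNAs, and 0 genes of the RNA exosome and decay list, 0 also at an unadjusted p under 0.05 (edgeR 9, DESeq2 8 at the adjusted threshold). DESeq2 called 5 higher and 8 lower members, with no adjusted p for 36 members. Over all genes DESeq2 called 1922 higher and 1286 lower, with no adjusted p for 2352. It called 11 other named lncRNAs. Leaving out 1 library gave 4 to 10 higher and 12 to 20 lower members, 1481 to 2904 higher and 903 to 2291 lower genes, 11 to 18 other named lncRNAs (18 with all) and 3 to 11 genes of the exosome and decay list. The counts of 4 higher members came with either HMGB2-high library left out. The replicate block gave 7 higher and 17 lower members, 23 of them the same as without it, and ended the call of LINC00467 (adjusted p = 0.0544 by edgeR). Over all genes the block called 2446 higher and 2011 lower. Libraries share only a number, and the block is given for that reason here. Upper-quartile factors gave 5 higher and 20 lower members, beside 2035 higher and 2809 lower of all genes. Total counts gave 5 and 18 members, beside 2015 and 2641 genes. No filter gave 8 and 18 members, beside 2567 and 1756 of 28647 genes. Thinned libraries gave 6 and 17 members, beside 2426 and 1995 genes. The count rule at 5 in each library gave 8 higher and 19 lower of 181 LINC rows, some of which were not tested. At 20 in each library it gave 7 and 15 of 103. Of all genes tested 16.7% were higher and 14.1% lower. Of the 24 called members, 10 kept their call in every setting tried other than the 1.5-fold test, 14 lost it in at least 1, and 0 changed sign. Low counts limit the precision of most members.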
